A study of Mus musculus with 13 samples.

Results

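The cytosolic ribosomal protein genes are the protein-coding genes whose symbols begin with Rpl or Rps and a digit, together with Rplp0, Rplp1, Rplp2 and Rpsa. Kinases of the Rps6k family, pseudogene names and Rps27l were left out. The rule found 85 genes among the 55416 of the count table, of which 52 carry large-subunit names and 33 small-subunit names. Reads were sufficient to test 75 of them, and 10 held too few. One of the 85, Rps19bp1, meets the naming rule but encodes a protein that binds ribosomal protein S19 and is not itself part of the ribosome.

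The ribosome translates messenger RNA into protein. Its small subunit reads the codons and its large subunit joins the amino acids, and each is built from ribosomal RNA and a set of proteins made in balanced amounts. In mammals most of these proteins are encoded by a single active gene each, and their messengers begin with a run of pyrimidines, the 5′ terminal oligopyrimidine motif, through which mTOR signaling adjusts their translation. Ribosome production is known to rise in growing and dividing cells.

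RNA was sequenced from mouse brain tumors and normal brain. Tumors had been started in motor cortex, in CNP-Cre mice, which express Cre from the Cnp gene of the oligodendrocyte lineage, with a lentivirus carrying PDGFB and a p53 shRNA (5 libraries, PDGFB tumors) or HRasV12 and a p53 shRNA (5 libraries, RAS tumors). Both tumor groups thus share the p53 shRNA, and GFP+ tissue was taken at clinical endpoint from 5 mice each. The 3 normal libraries are labelled wild type and brain cells. The title of normal library 3 begins with MBT and those of the other normal libraries with NBT, and its group was taken from its tissue label. The protocol says that this tissue was dissected away from GFP+ tumor, and ages, brain region and the number of animals behind the normal libraries are not given in the sources used here. Where the labels do not say that libraries came from separate animals, p-values measure only the spread between these libraries.

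Each library held 13952738 to 15607754 reads, but only 529162 to 643055 were counted for a gene, and 95.2% to 95.7% of the uniquely mapped reads fell in no gene. The strand setting of the count is not given in the sources used here. Over the 13 libraries, exonic sequence of genes that face an exon on the other strand held 187 reads per kb, and that of genes facing nothing held 13.2. For the members alone these values were closer, at 343 reads per kb opposite an exon and 283 with nothing opposite. The mitochondrial messenger mt-Nd6, the one transcribed from the other strand, exceeded the sum of the other 12 in every library, by 1.80 to 4.19 times. Reads of a gene and of its opposite neighbor cannot be told apart in such a table, so every value below is the number of reads counted under a gene's name and has not been shown to be the level of its messenger. For 61 members nothing lies opposite, 5 lie opposite an intron and 19 opposite an exon, and results are given for these classes. The table holds multimapping reads in a line of its own (5.40% to 7.35% of reads), and 300 pseudogenes named after these genes together held 32 to 79 reads per library. RAS tumor 5 stands apart for these genes, and results that rest on it are given with and without it.

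Start-site sequences are shown because the pyrimidine run at the start is the known common feature of these genes. RefSeq windows on GRCm38.p6 matched 65 of the 85 members. The letters CTTTC, searched on the sense strand from 20 bases before to 20 bases after the start, were found in 20 of 65 members (30.8%) and in 6.44% of 27025 genes. The letters CCGGAAG, the core of an ETS-family site, searched on both strands from 150 bases before to 50 bases after the start, were found in 22 of 65 members (33.8%) and in 8.53% of genes. The windows below run from 40 bases before the start to 20 bases from it, with each CTTTC in capitals. Rplp0 and Rps9 lie at chr5:115559427-115559486 and chr7:3704001-3704060 on the plus strand and were among the members with the largest differences; their windows hold no CTTTC. Rpl15 lies at chr14:18270967-18271026 on the minus strand and was the one member that was lower in tumors. Rplp2 (chr7:141447611-141447670, plus strand), Rps26 (chr10:128626487-128626546, minus strand) and Rpl35 (chr2:39005112-39005171, minus strand) hold the motif.
Rplp0: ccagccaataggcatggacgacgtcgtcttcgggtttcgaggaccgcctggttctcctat
Rps9: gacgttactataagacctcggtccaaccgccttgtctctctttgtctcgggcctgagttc
Rpl15: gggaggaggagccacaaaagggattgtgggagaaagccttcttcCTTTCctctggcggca
Rplp2: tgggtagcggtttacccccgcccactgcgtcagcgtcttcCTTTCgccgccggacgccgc
Rps26: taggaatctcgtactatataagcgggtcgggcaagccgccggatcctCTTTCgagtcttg
Rpl35: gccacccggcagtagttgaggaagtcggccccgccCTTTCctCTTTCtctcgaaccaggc
The motif was present both in members that rose in tumors (Rps26) and in the one that fell (Rpl15).

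Together the 85 genes took a larger share of the reads counted for genes in tumors than in normal brain. The share was 0.291%, 0.273% and 0.283% in the normal libraries, and 0.547%, 0.576%, 0.634%, 0.477% and 0.603% in PDGFB tumors 1 to 5. It was 0.689%, 0.580%, 0.846%, 0.812% and 1.66% in RAS tumors 1 to 5. Every tumor library was above every normal library, and the tumor groups overlapped each other. The group means were 0.283% ± 0.00927 (SD, n = 3) in normal brain, 0.567% ± 0.0598 (SD, n = 5) in PDGFB tumors and 0.918% ± 0.429 (SD, n = 5) in RAS tumors. The PDGFB mean was 2.01 times and the RAS mean 3.25 times the normal mean, and without RAS tumor 5 the latter ratio was 2.59. RAS tumors stood at 1.62 times the PDGFB mean, or 1.29 times without RAS tumor 5. The Wilson 95% interval of RAS tumor 5 ran from 1.63% to 1.69%, and these intervals cover counting error only. No test was made of a sum over members chosen with earlier results known. In whole tissue, fewer cells of a type and less RNA per cell cannot be told apart.

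**Figure D1:**
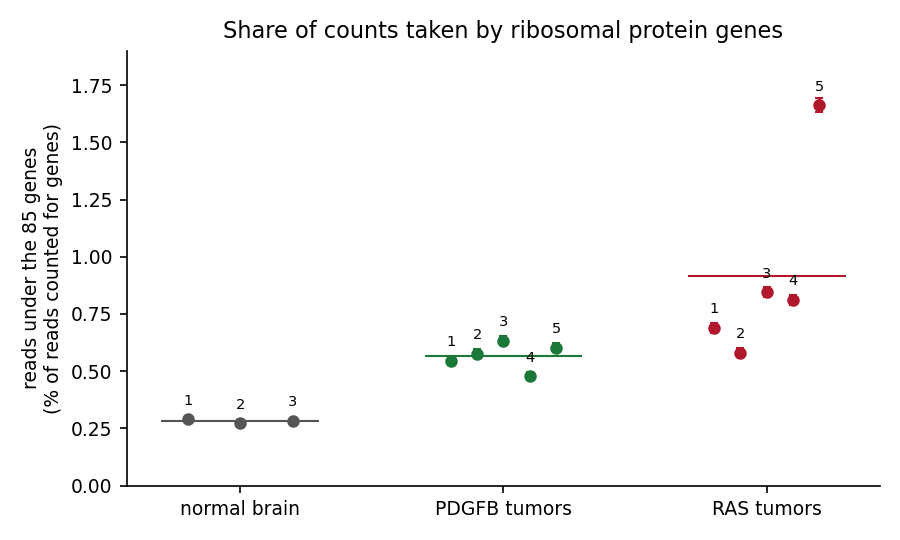
Share of the reads counted for genes that fell under the 85 ribosomal protein genes (y axis, percent) in each library, numbered by replicate; points carry Wilson 95% intervals and horizontal lines are group means. The 3 normal libraries lie between 0.273% and 0.291%, all 10 tumor libraries lie above them, and RAS tumor 5 stands at 1.66%.

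Large-subunit genes took 1.22 to 1.58 times the reads of small-subunit genes across the 13 libraries. The ratio was 1.37, 1.45 and 1.38 in normal libraries, inside the range of the tumors. It was highest in RAS tumor 5 (1.58) and PDGFB tumor 4 (1.54).

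The comparison of PDGFB tumors with normal brain asks how these genes differ in tumors driven by a growth-factor ligand. In this comparison 37 of the 75 tested members rose and 1, Rpl15, fell (edgeR quasi-likelihood test, adjusted p under 0.05). Of all 7722 genes tested, 20.2% were called higher and 25.1% lower. Without normal library 3, whose title differs, 25 members rose. The median log2 fold change was 1.10 over the tested members and 0.00 over all tested genes, and it was positive for 71 members, and that of Rps28 turned positive (0.068) with scaling by library totals, which moved the median of all genes to 0.23. For 58 members every PDGFB tumor was above every normal library, against 28.2% of all tested genes, and for 1, Rpl15, every one was below, against 23.3%. Among large-subunit genes 19 of 45 rose, and among small-subunit genes 18 of 30. Among the 58 tested members with no exon opposite, 32 rose and none fell, with a median log2 fold change of 1.20. Among the 17 opposite an exon 5 rose and 1 fell, with a median of 0.71.

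Rplp0 (ENSMUSG00000067274, chr5:115559467-115563727, plus strand) encodes the stalk protein P0, which holds the P1 and P2 proteins on the large subunit. It stood at 20.4, 17.0 and 36.4 CPM (reads per 1000000 reads counted for genes) in normal libraries, and at 171, 194, 181, 132 and 175 CPM in PDGFB tumors. In RAS tumors it stood at 252, 171, 246, 326 and 423 CPM. Both tumor groups were far above normal brain without overlap, and only RAS tumor 2 fell within the PDGFB range. Its log2 fold change was 2.54 (SE 0.35, adjusted p = 2.67e-05) in PDGFB tumors, the largest among the members, and 3.43 (SE 0.36, adjusted p = 9.89e-07) in RAS tumors.

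Rps9 (ENSMUSG00000006333, chr7:3703993-3706897, plus strand) encodes a small-subunit protein of the mRNA entry region. It stood at 23.8, 20.8 and 36.4 CPM in normal libraries and at 141, 112, 168, 89.2 and 131 CPM in PDGFB tumors. RAS tumors held 103, 125, 194, 116 and 229 CPM. The tumors did not overlap normal brain, and the tumor groups overlapped each other. The log2 fold change was 2.0 (SE 0.36, adjusted p = 0.000255) in PDGFB tumors and 2.41 (SE 0.36, adjusted p = 3.10e-05) in RAS tumors. Between tumor groups it was 0.41 (SE 0.26, adjusted p = 0.25), which did not pass.

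Rpl19 (ENSMUSG00000017404, chr11:98026710-98030492, plus strand) encodes a large-subunit protein that bridges to the small subunit. It stood at 23.8, 30.2 and 26.4 CPM in normal libraries and at 37.6, 41.1, 57.1, 69.4 and 44.7 CPM in PDGFB tumors. RAS tumors held 50.7, 62.4, 90.0, 77.9 and 255 CPM. All PDGFB tumors were above all normal libraries, and yet the log2 fold change of 0.66 (SE 0.50, adjusted p = 0.30) did not pass, while that of 1.93 in RAS tumors did (SE 0.50, adjusted p = 0.00312). With PDGFB tumors and normal brain fitted alone, the PDGFB difference passed as well (edgeR quasi-likelihood test, adjusted p = 0.0240). RAS tumor 5 stood far above the other RAS tumors.

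Besides Rplp0 and Rps9, the largest increases in PDGFB tumors were those of Rpl36a, Rpl22, Rpl27, Rpl39, Rps20 and Rpl10a. Rpl36a, a large-subunit gene on the X chromosome, stood at 5.11, 5.67 and 4.96 CPM in normal libraries and at 20.4, 18.1, 34.3, 24.8 and 44.7 CPM in PDGFB tumors (log2 fold change 2.17, SE 0.59, adjusted p = 0.00671). Rpl22, a large-subunit gene that has a paralog of its own, stood at 18.7, 3.78 and 8.26 CPM in normal libraries and at 45.5, 59.1, 55.5, 51.2 and 52.9 CPM in PDGFB tumors (2.09, SE 0.45, adjusted p = 0.00108). Tumors and normal libraries overlapped for neither gene, and the normal libraries differed widely for Rpl22. Rpl27 stood at 5.67 to 8.51 CPM in normal libraries and at 26.3 to 48.0 CPM in PDGFB tumors, Rpl39 at 5.11 to 6.61 and 16.3 to 29.8 CPM, and Rps20 at 7.56 to 17.0 and 19.8 to 58.0 CPM. Their log2 fold changes were 1.99, 1.84 and 1.73 (adjusted p = 0.00827, 0.0161 and 0.0119). The call of Rpl39 was lost with limma-voom (adjusted p = 0.0820). The large-subunit gene Rpl10a, at 6.61 to 24.6 CPM in normal libraries and 43.0 to 73.4 CPM in PDGFB tumors, had 1.72 (adjusted p = 0.00609). Over 51 bases at its 5′ end it lies opposite the non-coding gene CT025652.2, which held 0 to 17 reads per library.

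In RAS tumors 70 of the 75 tested members rose and 1, Rpl15, fell, against 26.9% and 29.3% of all genes tested (edgeR quasi-likelihood test). The median log2 fold change was 2.01 over the tested members and 0.02 over all tested genes. For 68 members every RAS tumor was above every normal library, against 25.8% of all genes, and for Rpl15 every one was below, against 26.4%. Of the large-subunit genes 44 of 45 rose, and of the small-subunit genes 26 of 30. Without RAS tumor 5 the same 70 members were called and the median was 1.78. Without normal library 3, 69 rose. Among members with no exon opposite 57 of 58 rose, and among those opposite an exon 13 of 17. The 4 members that passed in neither direction included Rps28 (log2 fold change 0.65), Rps25 (0.19) and Rps21 (1.18). Of these 4, 3 were among the 17 tested members opposite an exon, and 1, Rps21, was among the 58 with none. Rps21 stood at 6.81 to 20.8 CPM in normal libraries. Why the 4 members did not pass was not tested. This comparison uses the same 3 normal libraries as that of PDGFB tumors, so the counts are not independent of each other.

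**Figure D2:**
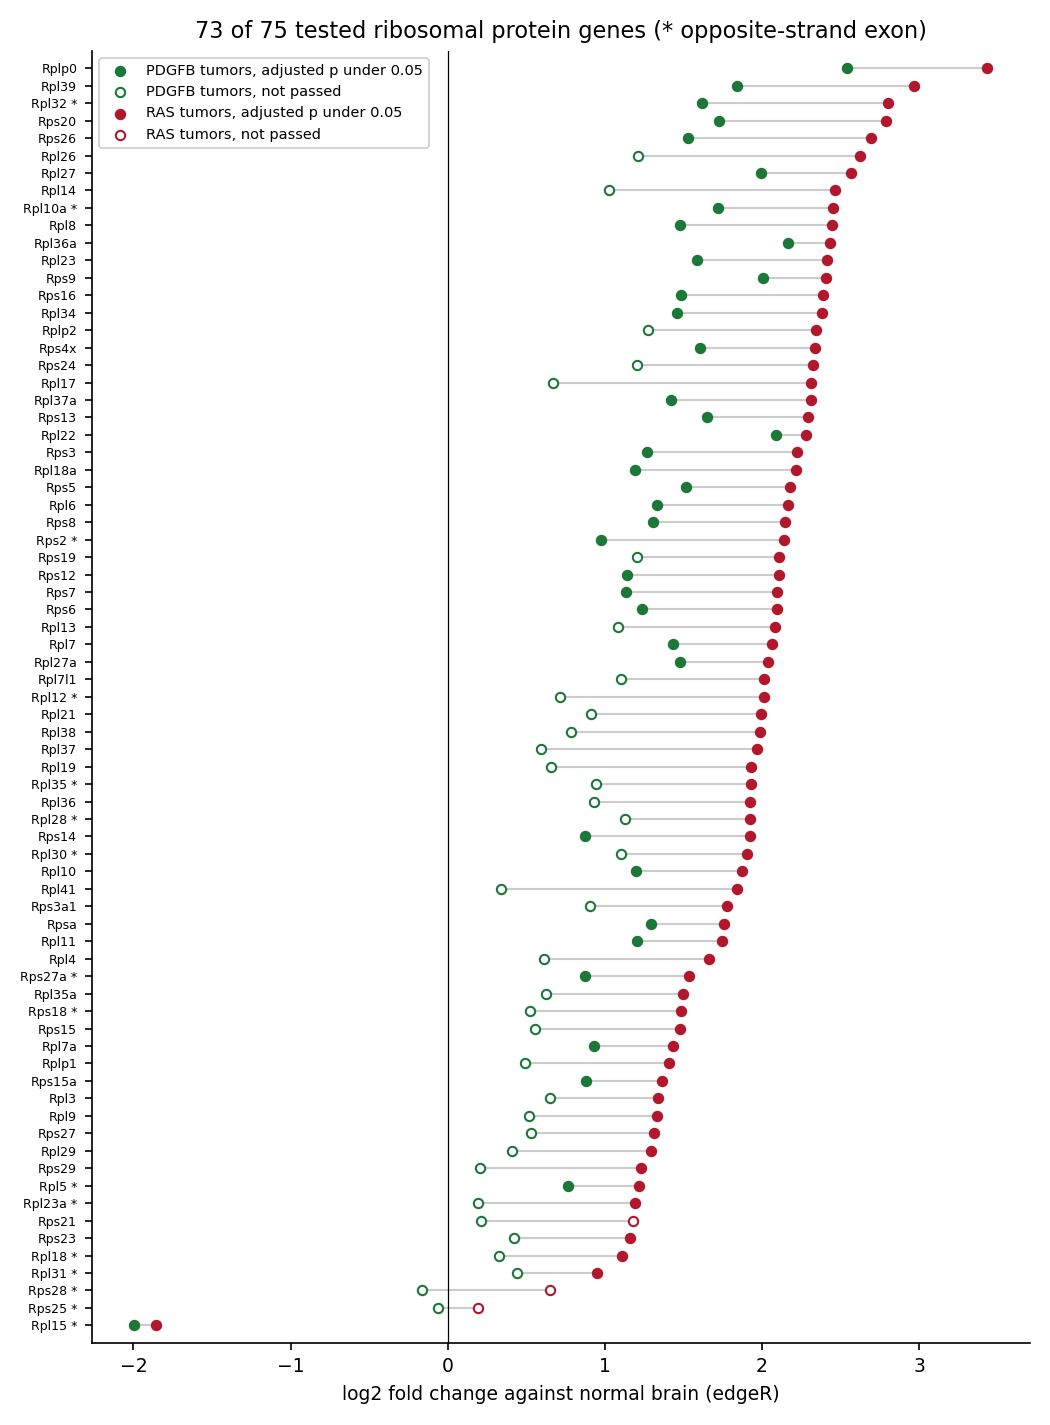
Log2 fold change against normal brain (x axis, edgeR) for tested members (y axis, ordered by the RAS value), in PDGFB tumors (green) and RAS tumors (red); filled points passed at adjusted p under 0.05, and an asterisk marks members that face an opposite-strand exon. RAS points lie right of zero for every member shown but Rpl15, and Rplp0 lies farthest to the right in both tumor groups.

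The members with the largest differences in RAS tumors included Rplp0, Rpl39, Rpl32, Rps20, Rps26, Rpl26 and Rpl27. Rpl39, one of the smallest ribosomal proteins, which lines the exit tunnel, stood at 32.7, 18.1, 52.7, 46.1 and 94.9 CPM in RAS tumors and had a log2 fold change of 2.96 (SE 0.56, adjusted p = 0.000237). Rpl32, a large-subunit gene, stood at 11.9, 28.3 and 14.9 CPM in normal libraries, at 67.4, 67.3, 76.7, 56.2 and 62.8 CPM in PDGFB tumors, and at 70.4, 102, 100, 107 and 292 CPM in RAS tumors. Its log2 fold change was 2.80 in RAS tumors (SE 0.48, adjusted p = 0.000111) and 1.62 in PDGFB tumors (SE 0.48, adjusted p = 0.0112). Tumors and normal libraries did not overlap for either gene.

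The small-subunit gene Rps20 stood at 52.4, 62.4, 59.5, 84.3 and 168 CPM in RAS tumors (log2 fold change 2.79, SE 0.51, adjusted p = 0.000194). Rps26, which lies at the mRNA exit site, stood at 11.9, 13.2 and 8.26 CPM in normal libraries, at 40.8, 41.1, 40.8, 41.3 and 26.5 CPM in PDGFB tumors and at 62.2, 36.1, 73.0, 68.4 and 143 CPM in RAS tumors (2.70, SE 0.45, adjusted p = 8.91e-05). The lowest RAS tumor of both genes was above the highest normal library. In PDGFB tumors Rps26 rose as well (log2 fold change 1.53, adjusted p = 0.0124), but this call was lost without normal library 3 (adjusted p = 0.0503).

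Rpl26, known for binding the p53 messenger, stood at 29.0, 24.6 and 23.1 CPM in normal libraries and at 69.0, 55.8, 84.8, 64.5 and 74.4 CPM in PDGFB tumors. RAS tumors held 83.5, 62.4, 131, 85.9 and 460 CPM. Its log2 fold change was 2.62 in RAS tumors (SE 0.60, adjusted p = 0.00125) and 1.21 in PDGFB tumors (SE 0.59, adjusted p = 0.11), and RAS tumor 5 was 5.08 times the mean of the other 4 RAS tumors, the widest gap of any tested member. In PDGFB tumors Rpl26 passed in 4 alternatives: library totals, no or a looser low-count filter, and PDGFB tumors and normal brain fitted alone.

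**Figure D3:**
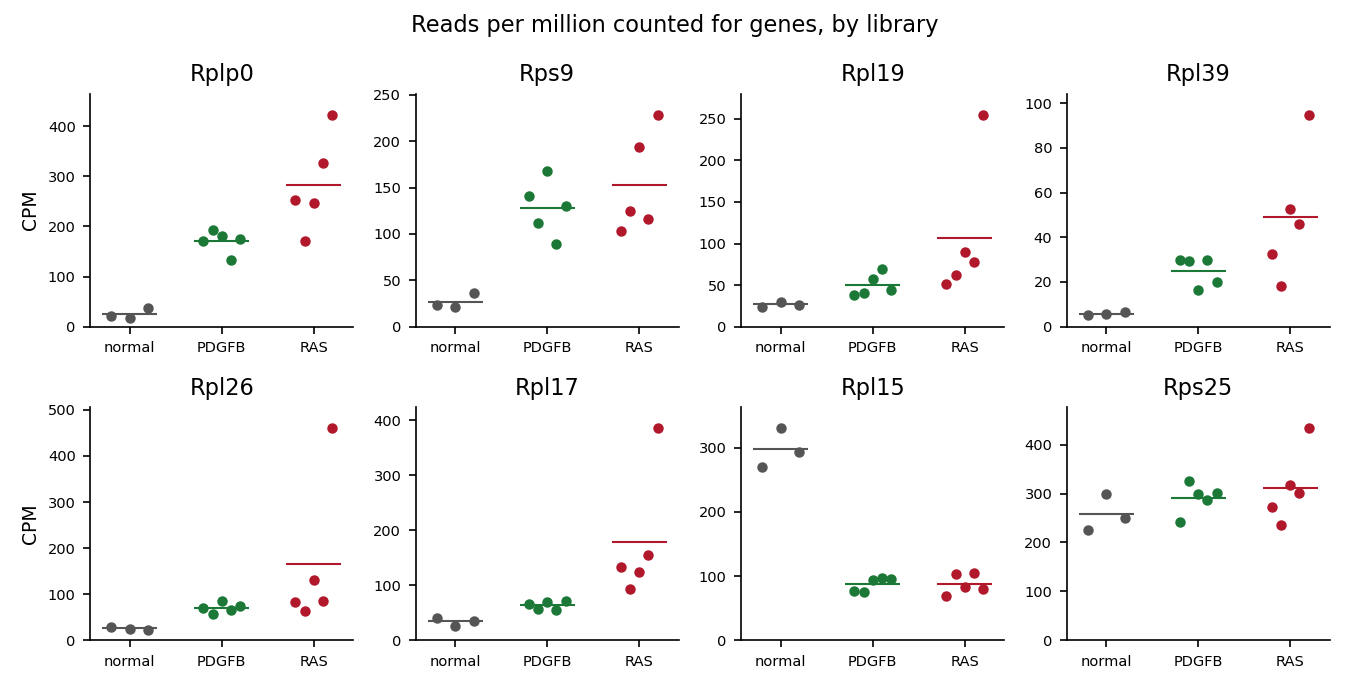
CPM (y axis, from 0) of 8 members in normal brain, PDGFB tumors and RAS tumors; each point is a library in replicate order and lines are group means. Rpl15 runs against the others with 271 to 331 CPM in normal brain, Rps25 overlaps between the groups, and the last RAS point is the highest in every panel but that of Rpl15.

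The comparison between the tumor groups asks how the 2 driver combinations differ. RAS tumors held more reads than PDGFB tumors for 43 of the 75 tested members and fewer for none (edgeR quasi-likelihood test), against 17.4% and 14.6% of all genes tested. The median log2 fold change was 0.91 over the tested members and -0.03 over all tested genes, and it was positive for all 75, though that of Rpl15 was -0.0021 with scaling by library totals. For 7 members, 9.33% of those tested, every RAS tumor was above every PDGFB tumor, near the 8.88% of all genes. They were Rpl12, Rpl14, Rpl17, Rpl37, Rpl38, Rps14 and Rps2. For 0 members every RAS tumor was below every PDGFB tumor, against 11.4% of all genes. Of the large-subunit genes 25 of 45 rose, and of the small-subunit genes 18 of 30. Among members with no exon opposite 35 of 58 rose, and among those opposite an exon 8 of 17.

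Leaving out RAS tumor 5 lowered this count more than leaving out any other library. This tumor was above all 12 other libraries for 73 of the 75 tested members, the exceptions being Rpl15 and Rps4x. The share of all tested genes for which this held is not given here, so the count cannot be set against it. The CPM of RAS tumor 5 was 2.27 times the mean of RAS tumors 1 to 4 for the median member (range 0.851 to 5.08), and 0.861 times for the median of all tested genes. Without RAS tumor 5, 15 members were called, all among the 43, with a median log2 fold change of 0.52. These were Rpl17, Rps2, Rpl41, Rpl37, Rpl12, Rps14, Rpl14, Rps4x, Rpl38, Rpl6, Rps3, Rps26, Rps29, Rplp0 and Rpl29. Leaving out PDGFB tumor 4 left 18 called members, and leaving out RAS tumor 2 raised the count to 63. Scaling by library totals gave 24, with a median over all tested genes of -0.17 in place of -0.03. The share of all genes called in each of these settings is not given here, so these counts cannot be set against it. The median coefficient of variation of the members was 48.9% among RAS tumors, 23.1% without RAS tumor 5, and 20.4% among PDGFB tumors.

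Other measures of RAS tumor 5 were compared with those of the other libraries. Genes with nothing opposite took 14.2% of its counts and 11.8% to 12.5% of those of the other RAS tumors. Its CPM relative to the mean of RAS tumors 1 to 4 was 1.11 for the median mitochondrial ribosomal protein gene, 1.17 for translation factors and 1.21 for ribosome biogenesis genes. The 12 macrophage and microglia markers summed to 986 CPM in it, the top of the RAS range of 617 to 986, against 335 to 432 in PDGFB tumors and 365 to 413 in normal brain, where Ptprc was at 0. The 8 oligodendrocyte precursor markers summed to 99.5 CPM in it, the bottom of the RAS range of 99.5 to 358, against 678 to 954 in PDGFB tumors. It also held the highest RAS sums of the proliferation markers (617 CPM, others 432 to 578) and of the ribosome biogenesis genes (5230 CPM, others 3492 to 3934), and the lowest of the mature oligodendrocyte markers (597 CPM, others 654 to 924). The part of these in the result was not tested.

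Rpl17, a large-subunit gene at the exit tunnel, had the largest difference between tumor groups. It stood at 40.9, 26.5 and 34.7 CPM in normal libraries, at 65.9, 57.5, 70.1, 54.5 and 71.1 CPM in PDGFB tumors and at 133, 93.6, 124, 156 and 386 CPM in RAS tumors. The tumor groups did not overlap, with a log2 fold change of 1.65 (SE 0.34, adjusted p = 0.00134), and of 1.12 without RAS tumor 5 (adjusted p = 0.00125).

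Rpl41, which encodes a very short basic peptide of the large subunit, stood at 62.7, 73.9, 71.8, 64.5 and 72.8 CPM in PDGFB tumors and at 149, 72.2, 149, 175 and 330 CPM in RAS tumors. RAS tumor 2 fell inside the PDGFB range, and the other 4 lay above it. The log2 fold change was 1.50 (SE 0.31, adjusted p = 0.00135), and 1.13 without RAS tumor 5 (adjusted p = 0.00253). Against normal brain, at 46.0, 45.4 and 47.9 CPM, Rpl41 had 0.34 in PDGFB tumors (adjusted p = 0.49) and 1.84 in RAS tumors (adjusted p = 0.000588).

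Rpl14, Rpl37, Rpl12 and Rpl38, all of the large subunit, did not overlap between the tumor groups. Rpl14 stood at 47.9 to 63.6 CPM in PDGFB tumors and at 76.9 to 294 CPM in RAS tumors. Rpl37 stood at 23.2 to 26.3 and 35.7 to 109 CPM, Rpl12, a stalk-base protein, at 64.5 to 88.7 and 91.9 to 302 CPM, and Rpl38, known for its part in translating Hox messengers, at 15.7 to 31.4 and 34.4 to 84.0 CPM. The log2 fold changes were 1.44, 1.38, 1.30 and 1.20, and 0.90, 0.99, 0.97 and 0.90 without RAS tumor 5, all past the threshold. Over 56 bases at its 5′ end Rpl12 lies opposite Lrsam1, at a mean of 14.7 CPM in PDGFB tumors and 130 CPM in RAS tumors. Lrsam1 was higher in RAS tumors (log2 fold change 3.28, edgeR quasi-likelihood test, adjusted p = 1.26e-06). Its part in the reads under Rpl12 was not tested. Rpl19 and Rpl26, with log2 fold changes of 1.27 and 1.41, did not pass without RAS tumor 5 (0.63 and 0.51, adjusted p = 0.0763 and 0.134). Of the 2 other markers, Rplp0 still passed without it (0.69, adjusted p = 0.0337).

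**Figure D4:**
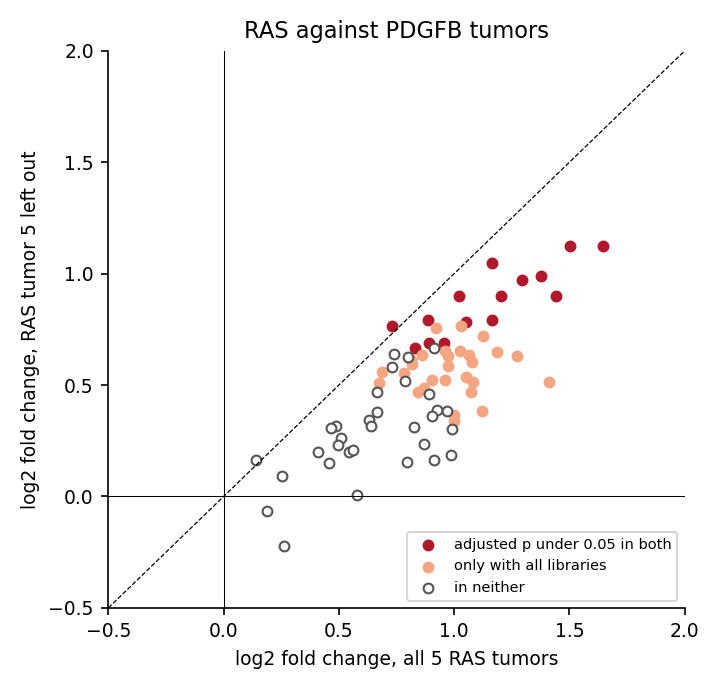
Log2 fold change of RAS against PDGFB tumors for the 75 tested members with all libraries (x axis) and with RAS tumor 5 left out (y axis); color shows where a member passed at adjusted p under 0.05 and the dashed line marks equal values. Most points lie below the line, and 15 of the 43 members called with all libraries were called in both.

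Per kb of exon, the most reads were counted under Rpl36, Rpl23a, Rplp1, Rps15, Rps3a1 and Rplp0, at 222, 146, 130, 129, 121 and 109 CPM per kb over all libraries, and the median tested member had 40.8. All of these but Rpl23a, described with its opposite gene, are given here or above. Rpl36 stood at 23.8, 32.1 and 41.3 CPM in normal libraries, 29.8, 78.8, 101, 95.8 and 59.5 CPM in PDGFB tumors, and 81.8, 57.4, 104, 84.3 and 317 CPM in RAS tumors. PDGFB tumor 1 fell within the normal range, and Rpl36 passed in RAS tumors (log2 fold change 1.92, adjusted p = 0.00656) and not in PDGFB tumors (0.93, adjusted p = 0.18). In PDGFB tumors it did pass with no low-count filter, and with PDGFB tumors and normal brain fitted alone. Rplp1 and Rps15, the P1 stalk protein gene and a small-subunit gene, had 1.41 and 1.48 in RAS tumors (adjusted p = 0.0239 and 0.0107), and 0.49 and 0.55 in PDGFB tumors (adjusted p = 0.44 and 0.34). With PDGFB tumors and normal brain fitted alone, both passed in PDGFB tumors (edgeR quasi-likelihood test, adjusted p = 0.0469 and 0.0384). In RAS tumors the call of Rplp1 was lost with limma-voom, with RAS tumors and normal brain fitted alone, and without normal library 1 or 2. That of Rps15 in RAS tumors was lost without normal library 2. Rps3a1, a small-subunit gene, stood at 44.3 to 52.9 CPM in normal libraries, 67.8 to 153 CPM in PDGFB tumors and 125 to 323 CPM in RAS tumors, and rose in RAS tumors (1.77, adjusted p = 0.000621).

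Rpl15 (ENSMUSG00000012405, chr14:18267823-18271391, minus strand), a large-subunit gene, was the one member that fell. It stood at 271, 331 and 294 CPM in normal libraries, at 76.9, 75.5, 94.6, 97.5 and 95.9 CPM in PDGFB tumors and at 68.8, 103, 83.2, 105 and 79.3 CPM in RAS tumors. Every normal library was far above every tumor, and the tumor groups overlapped. The log2 fold change was -1.99 in PDGFB tumors (SE 0.21, adjusted p = 2.18e-06) and -1.85 in RAS tumors (SE 0.21, adjusted p = 1.95e-06). Over 105 bases (chr14:18271219-18271323) its exons lie opposite Nkiras1, which held 531 to 767 reads per library and was called in no comparison (log2 fold change -0.25 and -0.28 against normal brain). Rpl15 held 42 to 178 reads per library.

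Genes opposite the members often held far more reads than the members. Of the 21 pairs of a member and a gene with an exon opposite it, the opposite gene had the higher mean CPM in 13. Of the 16 opposite genes tested, 10 were higher and 1 lower in PDGFB tumors, and 12 higher and 1 lower in RAS tumors. In RAS against PDGFB tumors 9 were higher and 1 lower (edgeR quasi-likelihood test). Of all genes tested, 20.2% were higher and 25.1% lower in PDGFB tumors, and 26.9% and 29.3% in RAS tumors. Between the tumor groups these shares were 17.4% and 14.6%. The median log2 fold changes of the opposite genes were 1.12, 1.76 and 0.52.

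Rpl23a, a large-subunit gene near the exit tunnel, lies with 506 exon bases, 59.7% of its exon length, opposite Tlcd1 on chromosome 11. Rpl23a held 40, 36 and 52 reads in normal libraries, 68, 55, 68, 45 and 70 in PDGFB tumors and 67, 67, 73, 79 and 268 in RAS tumors. Tlcd1 held 1726, 1385 and 1804 reads in normal libraries, 4547 to 6181 in PDGFB tumors and 5451 to 9237 in RAS tumors. Tlcd1 rose without overlap in both tumor groups (log2 fold change 1.41 and 1.92, adjusted p = 2.32e-05 and 8.03e-07). Rpl23a itself had 0.19 in PDGFB tumors (adjusted p = 0.73) and 1.19 in RAS tumors (adjusted p = 0.0235), a call lost with limma-voom and without normal library 1 or 2.

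A like pattern of reads was seen for other members. Wdr38, opposite 821 bases (66.2%) of the large-subunit gene Rpl35, held 800 to 1008, 2227 to 2903 and 2498 to 5292 reads (1.14 and 1.83, adjusted p = 0.000213 and 2.04e-06). D730044K07Rik, opposite 616 bases of Rpl30, and Cand2, opposite 53 bases of Rpl32, rose in both tumor groups as well (1.14 and 1.68, and 1.79 and 2.60).

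Other opposite genes moved apart from their members. Sphk2, opposite the large-subunit gene Rpl18, fell (log2 fold change -2.37 and -1.96), while Rpl18 had 0.33 (adjusted p = 0.41) and 1.11 (adjusted p = 0.00648). Fam69a, opposite 953 bases of Rpl5, a protein known for binding Mdm2, rose in PDGFB tumors (0.96, adjusted p = 0.00144) and had 0.04 in RAS tumors. Rpl5 rose in both (0.76 and 1.22), though in PDGFB tumors the call was lost without PDGFB tumor 1 or 5 or normal library 2 or 3. Rps25, a small-subunit gene opposite Ccdc84 and Trappc4, stood at 226, 299 and 250 CPM in normal libraries, at 242 to 325 CPM in PDGFB tumors and at 235 to 434 CPM in RAS tumors. These overlapped, and no comparison passed.

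For other members the opposite gene held few reads. Rps2, a small-subunit gene that overlaps 14 bases of the snoRNA host Snhg9 (0 to 1 reads), stood at 57.9, 51.0 and 54.5 CPM in normal libraries, at 132, 130, 124, 90.9 and 155 CPM in PDGFB tumors and at 246, 164, 270, 269 and 325 CPM in RAS tumors. No 2 groups overlapped. It rose in PDGFB tumors (0.98, SE 0.27, adjusted p = 0.00684), in RAS tumors (2.14, SE 0.28, adjusted p = 7.20e-06) and between the tumor groups (1.16, SE 0.21, adjusted p = 0.000565; 1.05 without RAS tumor 5). Rps18, Rps27a and Rps28 overlap Vps52, Clhc1 and Kank3, which held at most 11 reads. Rps27a, a fusion of ubiquitin and a small-subunit protein, rose in both tumor groups (0.87 and 1.54), and in PDGFB tumors the call (adjusted p = 0.0480) was lost in 9 of 15 alternatives. Rps18 rose in RAS tumors (1.48, adjusted p = 0.0031) and had 0.52 in PDGFB tumors (adjusted p = 0.27). With PDGFB tumors and normal brain fitted alone, Rps18 passed in PDGFB tumors (edgeR quasi-likelihood test, adjusted p = 0.0239). Rps28 had -0.17 and 0.65, neither past the threshold.

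**Figure D5:**
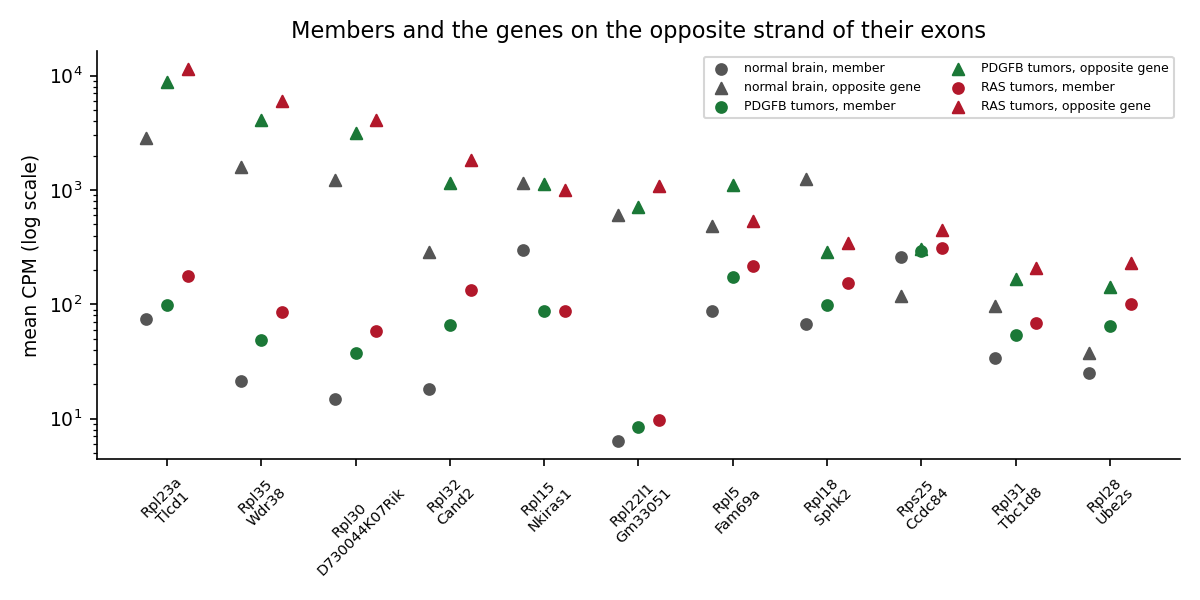
Mean CPM (log y axis) of members (circles) and of the gene whose exon lies opposite (triangles), for opposite genes above 100 CPM on average, in normal brain, PDGFB tumors and RAS tumors. Apart from the Rps25 pair, triangles lie above circles, and for Rpl23a, Rpl35, Rpl30 and Rpl32 the opposite gene is higher in both tumor groups than in normal brain.

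The tissue-restricted or duplicated copies held few reads. Rpl10l and Rpl39l, copies known from the testis, had 0 reads in all libraries, where 3 reads, the limit that a count of 0 allows, equal 4.67 to 5.67 CPM per library. Rpl3l, a copy known from striated muscle, had 2 reads in all, Rpl36al 6 reads (5 in normal libraries) and Rpl22l1 67 reads. Rpl7l1, a copy with its exons opposite an intron, was the one with enough reads, at 3.78 to 10.2 CPM in normal libraries, 14.8 to 23.2 CPM in PDGFB tumors and 14.3 to 51.3 CPM in RAS tumors, and rose in RAS tumors (log2 fold change 2.01, adjusted p = 0.00178). Coding identity to the parent was 84.8% for Rpl10l, 85.3% for Rpl39l, 73.2% for Rpl3l, 87.8% for Rpl36al, 66.9% for Rpl22l1 and 52.8% for Rpl7l1.

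Rps27 (chr3:90212522-90213651, minus strand) and its copy Rps27rt (chr9:114982366-114982739, minus strand) have the same 255 coding bases, so a read within the coding sequence has no single place. Their first 60 coding bases, GRCm38 and GENCODE M21, are shown for this reason.
Rps27 and Rps27rt: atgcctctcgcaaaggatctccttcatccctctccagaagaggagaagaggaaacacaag
Rps27rt held 7 reads in all. Rps27 stood at 8.51, 22.7 and 26.4 CPM in normal libraries, at 21.5 to 47.6 CPM in PDGFB tumors and at 37.7 to 82.4 CPM in RAS tumors, with a log2 fold change of 1.31 in RAS tumors (adjusted p = 0.011) and 0.53 in PDGFB tumors (adjusted p = 0.32). The other members too low to test were Rps10 (16 reads), Rpl24 (27), Rps19bp1 (33) and Rpl13a (43).

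Ribosome parts outside the naming rule were read from the same fit. Fau, which encodes ribosomal protein S30 as a fusion, stood at 20.4, 24.6 and 18.2 CPM in normal libraries, at 38.0 to 57.9 CPM in PDGFB tumors and at 88.4, 59.1, 90.0, 95.4 and 358 CPM in RAS tumors. It rose in RAS tumors (log2 fold change 2.65, adjusted p = 0.000592), and in PDGFB tumors had 0.93 (adjusted p = 0.184). Rack1, a scaffold of the small subunit whose exons lie opposite Trim41, rose in all 3 comparisons (1.64, 2.59 and 0.95).

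Of the tested translation factors, 15 of 35 were higher and 1 lower in PDGFB tumors, and 26 were higher and 1 lower in RAS tumors. Those higher were 42.9% and 74.3% of the tested list, against 20.2% and 26.9% of all tested genes. The median log2 fold changes were 0.83 and 1.22. The elongation factor gene Eef1a1 rose in both (1.27 and 1.71), and Eef1a2, the form of neurons and muscle, fell in both (-2.12 and -3.04). Ribosome biogenesis genes, which make and process ribosomal RNA, had 10 of 32 higher and 1 lower in PDGFB tumors and 17 higher and 1 lower in RAS tumors. Those higher were 31.2% and 53.1% of the tested list, against 20.2% and 26.9% of all tested genes. Npm1 (2.08 and 2.59), Ncl (1.20 and 1.36) and Ddx21 (3.54 and 3.74), all of the nucleolus, rose. Tsr1, which lies opposite an exon, was the one that fell. Between the tumor groups 7 biogenesis genes (21.9%) were higher and 2 lower in RAS tumors, against 17.4% and 14.6% of all tested genes, but among the 16 with no exon opposite none was called.

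Of 78 genes of the mitochondrial ribosome, 17 were tested, and 3 were higher and 3 lower in each tumor group against normal brain, with median log2 fold changes of -0.09 in PDGFB tumors and 0.42 in RAS tumors. These are 17.6% in each direction, below the 20.2% higher and 25.1% lower of all tested genes in PDGFB tumors and the 26.9% and 29.3% in RAS tumors. Only 4 of the 17 have no exon opposite. Of these, 0 were higher in either tumor group, and 1 was lower in PDGFB tumors and 0 in RAS tumors. Of all tested genes with no exon opposite, 17.8% and 27.5% were higher and 23.1% and 26.7% lower. Summed over all 78, the genes of the mitochondrial ribosome held 4271 to 4632 CPM in normal brain, 3879 to 4274 CPM in PDGFB tumors and 2827 to 3388 CPM in RAS tumors, so the sum in RAS tumors lay below normal brain while the median fold change of the 17 tested genes was positive. The difference between these lists was not tested. Of 9 tested regulators of ribosome synthesis, 2 (22.2%) rose in PDGFB tumors, near the 20.2% of all tested genes, and 5 rose in RAS tumors, where 26.9% of all tested genes did. Myc rose in PDGFB tumors (1.43, adjusted p = 0.0132) and had 0.59 in RAS tumors (adjusted p = 0.287). The snoRNA host Gas5 rose in both (2.14 and 1.59).

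Markers of other cells were summed by group, and for several lists the sums of tumors and normal brain overlapped. The 12 proliferation markers summed to 187 to 242 CPM in normal brain, where 6 of them (Cdk1, Tpx2, Cenpf, Bub1, Mcm2 and Birc5) were at 0, to 460 to 751 CPM in PDGFB tumors and to 432 to 617 CPM in RAS tumors. Of the 12 neuron markers, 11 fell in PDGFB tumors and 9 in RAS tumors (edgeR quasi-likelihood test). Of all genes tested, 25.1% and 29.3% fell. None of the neuron markers was called higher, and their median log2 fold changes were -3.55 and -3.68. They summed to 5867 to 6262, 342 to 768 and 4064 to 8543 CPM in the same order, and most of the sum in RAS tumors was Nefm (3468 to 8196 CPM), which lies opposite an exon. The 8 mature oligodendrocyte markers summed to 1586 to 2335 CPM in normal brain, 845 to 920 CPM in PDGFB tumors and 597 to 924 CPM in RAS tumors. The 8 astrocyte markers summed to 620 to 795, 212 to 512 and 117 to 657 CPM, and the 5 choroid plexus markers to 54.5 to 146, 0 to 4.93 and 0 to 10.9 CPM. The 7 endothelial markers summed to 11.6 to 18.7, 4.96 to 31.4 and 23.8 to 63.8 CPM, and the 5 red blood cell markers to 13.2 to 37.5, 6.57 to 21.5 and 3.27 to 28.6 CPM. None of the endothelial or red blood cell markers held enough reads to test. The 8 oligodendrocyte precursor markers summed to 98.8 to 112 CPM in normal brain. Their part in the differences of the ribosomal protein genes was not tested.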

How the data were processed

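RNA was sequenced in 13 mouse libraries. The authors deposited raw read counts per Ensembl gene with 4 summary lines, which were kept out of library sizes and tests. Per the submitters' processing notes, fastp 0.22.0, STAR 2.7.9a and build GRCm38 were used; annotation and strand setting are not given in the sources used here. Symbols came from GENCODE M21, which held 52135 of 55416 genes. Members, lists and tests were chosen with earlier results of these data known. Counts were fitted with edgeR 4.0.16 (R 4.3.3; quasi-likelihood, TMM, filterByExpr with at least 10 reads, 1 coefficient per group over all 13 libraries) and Benjamini-Hochberg adjustment over 7722 genes, called at 0.05. CPM is reads per 1000000 reads counted for genes. DESeq2 1.42.0 and limma 3.58.1 served as alternatives. In data simulated for 7110 genes, the share of 2-fold changes recovered was 9.2% for PDGFB against normal, 18.9% for RAS against normal and 24% for RAS against PDGFB, and that of 4-fold changes 84.5%, 88.1% and 98%. Of the calls, 3.66%, 5.76% and 6.15% were false in the same order. Far fewer genes were changed there (87 by 2-fold and 84 by 4-fold for PDGFB against normal) than were called in these data. The recovered shares therefore need not hold for the comparisons above. Members described with values were the 3 markers Rplp0, Rps9 and Rpl19, up to 8 called members with the largest positive and negative fold changes per comparison, the 6 with the most reads per kb, called members opposite an exon and paralogous copies; Rps25, Rps21 and Rps27 were added after their values were seen. The paralog Rps4l was not analysed here. Replicate numbers of the tumor groups were checked for pairing. Results of a few genes are not reported here.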

Additional observations from a re-analysis of the deposited data

Results flagged for a closer look

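In a group of 4 to 10 libraries a value was set apart where its gap to the nearest other library was too large for the range of the group by Dixon's 95% critical value; chance alone does this in about 1 in 20 groups. RAS tumor 5 was set apart high for 20 of the described members. Several of these were described for large fold changes in RAS tumors, which include the values of this library. The share of all genes for which it was set apart is not given here. The CPM of RAS tumor 5 was 255 for Rpl19, 63.8 for Rpl36a, 107 for Rpl27, 168 for Rps20, 292 for Rpl32, 460 for Rpl26 and 386 for Rpl17. It was 294 for Rpl14, 109 for Rpl37, 84 for Rpl38, 317 for Rpl36, 417 for Rpl23a, 238 for Rplp1 and 257 for Rps15. It was 323 for Rps3a1, 238 for Rpl28, 109 for Rpl31, 225 for Rpl35, 367 for Rpl5 and 339 for Rps18. The share of its counts under all 85 members, 1.66%, and under genes with nothing on the opposite strand, 14.2%, were set apart as well.

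PDGFB tumor 5 was set apart low for Rps26 (26.5 CPM), and PDGFB tumor 2 high for the share of counts under genes with nothing opposite (13%).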

How the results depend on the processing

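Members called higher in PDGFB tumors against normal brain numbered 37, and 58 when the 2 groups were fitted alone, 16 at adjusted p under 0.01, and 25 to 39 with each library left out in turn. Members called lower there numbered 1, and 2 with no low-count filter or a looser one, and 0 over members, or in a fit of genes, with no exon opposite, where Rpl15 is not present. In RAS tumors against normal brain 70 were higher, 64 to 72 with each library left out, and 1 lower, 0 in the 2 settings without an exon opposite. In RAS against PDGFB tumors 43 were higher, and 24 with library totals, 21 in the fit of genes with no exon opposite (chosen after seeing the data), 11 at adjusted p under 0.01, 22 at 2-fold or more, and 15 to 63 with each library left out. The fit of genes with no exon opposite leaves out the members opposite an exon. Its 21 stands beside the 35 of 58 such members called in the main fit, not beside 43. The share of all genes called in each setting is not given here, and the cause of these changes was not tested.

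A replicate block over the tumor groups gave 23. Same-numbered PDGFB and RAS tumors did not deviate together (correlations 0.14, -0.02, -0.03, -0.13 and 0.08), and pairs with unlike numbers ran from -0.19 to 0.31. Such correlations cannot show whether same-numbered tumors were handled together, so whether the numbers pair them is not known.

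Of the described members' values, 1596 kept their direction and side of the threshold, 86 lost the call, 53 gained one and 5 reversed. The reversed ones were not called: in PDGFB tumors against normal brain Rps28 (0.068 with library totals, -0.24 to 0.068 with each library left out), and in RAS against PDGFB tumors Rpl36a (-0.22 to 0.48) and Rpl22 (-0.065 to 0.35) with each library left out, the lowest without RAS tumor 5, and Rpl15 (-0.0021) with library totals. The tested members held 174 to 2299 reads each over the 13 libraries.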
